A study of Mus musculus with 20 samples.

Results

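Gm4759, Inppl1 and Ppfibp2 are 3 of the 24421 genes counted in RNA of mouse bone marrow neutrophils. They were chosen by name as genes on chromosome 7, near Arntl and outside the Trim gene cluster, whose level was far higher in mice that lack Bmal1 in myeloid cells than in WT mice. Because the difference between the genotypes chose them, it is described below with no test, while the response to treatment and its dependence on genotype, which the choice did not use, were tested. Arntl is the name under which the count files list Bmal1.

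Neutrophils were taken from bone marrow by magnetic negative selection and 1 poly(A) RNA library was sequenced per sample, in 4 groups of 5 libraries. WT and Bmal1 Mye-/- mice each gave a group without and a group with IMQ. IMQ (imiquimod) is an agonist of Toll-like receptors, applied as a 5% cream to the ears 3 times per week for 6 weeks, beginning at 8 to 10 weeks of age, in a model of lupus. All mice were female, and they were euthanized in the morning. Bmal1 Mye-/- mice carry floxed Bmal1 and LysM-Cre, a recombinase inserted at Lyz2 that acts in myeloid cells at large. They were bred in-house from B6.129S4(Cg)-Bmal1tm1Weit/J and B6.129P2-Lyz2tm1(cre)Ifo/J mice, whereas the WT mice were purchased C57BL/6J. The loss of Bmal1, the Cre, the strain of origin of the DNA around each modified locus and the source of the mice therefore cannot be told apart in any comparison of the genotypes.

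Inppl1 encodes an inositol lipid phosphatase of the SHIP family, which removes a phosphate from the lipid that PI3K makes at the plasma membrane and so acts on signals that pass through Akt. Ppfibp2 encodes a liprin beta, a scaffold protein that pairs with liprin alpha proteins in complexes at adhesion sites and synapses. Gm4759 is annotated as a transcribed pseudogene and lies in a group of genes for very large interferon-inducible GTPases, whose intact members are induced in cells exposed to interferon. BMAL1 is a transcription factor of the circadian clock that binds the E-box, the letters CACGTG, together with CLOCK.

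Levels are given as CPM, a count divided by the library size after TMM scaling in edgeR and set to a common total. Reads on genes numbered 30782166 to 92613500 per library, and 14030 genes had enough counts to be tested. Arntl itself ranged from 0.895 to 1.71 CPM in untreated WT and from 0.468 to 1.10 CPM in untreated Bmal1 Mye-/-. With IMQ it ranged from 0.562 to 1.87 CPM in WT and from 0.337 to 1.52 CPM in Bmal1 Mye-/-, so the genotypes overlapped. Its means in WT and Bmal1 Mye-/- were 1.35 and 0.721 CPM without IMQ and 1.11 and 0.702 CPM with it. Replicate 1 was the highest of each Bmal1 Mye-/- group. Neither difference passed at an adjusted p under 0.05 from edgeR's test. A single count per gene does not separate the floxed exon from the others. Lyz2, where the Cre is inserted, was between 2465 and 12033 CPM in the 10 WT libraries and between 58.8 and 177 CPM in the 10 Bmal1 Mye-/- libraries. The 11 neutrophil markers that were counted summed to 52928 to 122797 CPM, above the summed markers of any other cell type examined. The lowest of these sums was in IMQ-treated Bmal1 Mye-/- replicate 1. That library also had the highest summed level of 8 monocyte markers in its group, 3764 CPM against 732 in the lowest. IMQ-treated Bmal1 Mye-/- replicate 4 and IMQ-treated WT replicate 1 had the highest means of 20 interferon-stimulated genes, at 7.65 and 7.48 on the log2 CPM scale, against 3.56 to 5.48 in the other 18 libraries.

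On mm10, Inppl1 lies at chr7:101822632-101838226 on the minus strand, Gm4759 at chr7:106421550-106441073 on the minus strand and Ppfibp2 at chr7:107595047-107748583 on the plus strand (RefSeq on GRCm38.p6). Their ends are 11.3, 6.74 and 5.43 Mb before the start of Arntl at chr7:113178471-113314126. For Gm4759 the GENCODE model is a single exon at chr7:106417848-106424469, which covers only part of the RefSeq span, and which model the counting used is not given in the sources used here.

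The promoters of Inppl1 and Ppfibp2 are shown because the E-box is the site that BMAL1 binds. RefSeq windows from 250 bases before to 50 bases after a transcript start were searched on both strands for the E-box CACGTG, the related letters CACGTT, the core GAAANNGAAA of the interferon-stimulated response element and the GC box GGGCGG. In the sequences of the first listed start of each gene, written in the direction of transcription, capitals mark GC boxes on either strand. The Inppl1 window is chr7:101838177-101838476 on the minus strand and the Ppfibp2 window is chr7:107594801-107595100 on the plus strand.
Inppl1: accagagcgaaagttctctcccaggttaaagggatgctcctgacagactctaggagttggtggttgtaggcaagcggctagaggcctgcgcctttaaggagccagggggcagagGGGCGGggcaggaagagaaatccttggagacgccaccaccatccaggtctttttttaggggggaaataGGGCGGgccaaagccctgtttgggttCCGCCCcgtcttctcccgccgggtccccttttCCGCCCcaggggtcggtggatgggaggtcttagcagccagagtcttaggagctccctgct
Ppfibp2: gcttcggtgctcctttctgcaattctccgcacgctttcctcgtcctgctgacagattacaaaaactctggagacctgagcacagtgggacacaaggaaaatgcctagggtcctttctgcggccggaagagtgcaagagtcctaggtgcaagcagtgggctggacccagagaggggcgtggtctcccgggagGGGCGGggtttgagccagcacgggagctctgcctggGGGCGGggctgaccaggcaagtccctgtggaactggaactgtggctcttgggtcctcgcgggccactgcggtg
The Inppl1 window held 4 GC boxes, beginning 136, 68, 42 and 10 bases before the start, and the Ppfibp2 window held 2, beginning 59 and 23 bases before it. The GC content was 60.3% and 62.0%. The second Inppl1 window also held 4 GC boxes, of which 2 overlap, and the other 3 Ppfibp2 windows held 0. None of these 6 windows held the E-box, its related letters or the response element core, which says only that these letters are not in these windows. Over the 32851 promoter windows of this length, 7.15% held the E-box, 4.68% its related letters, 3.44% the response element core and 35.7% held the GC box. No window was listed for Gm4759.

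Gm4759 was close to absent in WT neutrophils and was detected in every Bmal1 Mye-/- library, at 698 counts or more. In untreated WT its counts were 8, 2, 7, 11 and 7 in replicates 1 to 5, or 0.119, 0.0283, 0.0856, 0.167 and 0.106 CPM. In untreated Bmal1 Mye-/- they were 1578, 1889, 698, 1399 and 1076, or 21.9, 20.4, 23.5, 26.2 and 15.7 CPM. With IMQ, WT had 3, 0, 1, 9 and 7 counts, and Bmal1 Mye-/- had 945, 1239, 1500, 6443 and 2393, or 12.3, 28.5, 26.6, 83.6 and 31.5 CPM. Every Bmal1 Mye-/- library was thus above every WT library. On the CPM scale, the single library that stood away from its group was IMQ-treated Bmal1 Mye-/- replicate 4. The group means were 0.101 ± 0.0505 and 21.5 ± 3.91 CPM without IMQ, and 0.0737 ± 0.0691 and 36.5 ± 27.4 CPM with IMQ (SD, n = 5). Summed over the libraries of a group, the counts of Gm4759 were 6640 in Bmal1 Mye-/- and 35 in WT without IMQ, and 12520 and 20 with IMQ. Scaled by the summed TMM library sizes, these gave ratios of 211 and 507. The 95% intervals from counting error alone, 152 to 303 and 328 to 831, leave out the variation between mice.

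Inppl1 was measurable in WT and was higher in Bmal1 Mye-/-, where its level varied little among the untreated mice. Untreated WT had 1.11, 2.32, 2.54, 1.88 and 2.27 CPM in replicates 1 to 5, and untreated Bmal1 Mye-/- had 29.4, 32.6, 30.6, 30.2 and 29.2 CPM. With IMQ the values were 1.37, 1.15, 1.12, 2.17 and 2.62 CPM in WT and 49.0, 30.0, 27.0, 24.0 and 19.1 CPM in Bmal1 Mye-/-. The genotypes were far apart under both conditions, while the untreated and IMQ-treated libraries of a genotype overlapped. Group means were 2.03 ± 0.565 and 30.4 ± 1.33 CPM without IMQ and 1.69 ± 0.674 and 29.8 ± 11.5 CPM with IMQ (SD, n = 5). The fitted difference was 3.90 on the log2 scale without IMQ, a factor of 15.0, and 4.14 with IMQ, a factor of 17.7.

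Without IMQ, Ppfibp2 had the highest level of the 3 genes in both genotypes on the CPM scale, which does not correct for transcript length. Its values in untreated WT were 4.73, 4.38, 4.48, 3.88 and 4.71 CPM, and in untreated Bmal1 Mye-/- 43.9, 41.4, 45.0, 47.2 and 45.1 CPM. With IMQ they were 1.31, 1.42, 1.29, 1.90 and 3.64 CPM in WT, and 28.3, 36.9, 39.5, 34.4 and 27.9 CPM in Bmal1 Mye-/-. Here all 4 groups were separate, in the order untreated Bmal1 Mye-/-, IMQ-treated Bmal1 Mye-/-, untreated WT and IMQ-treated WT. Group means were 4.44 ± 0.344 and 44.5 ± 2.13 CPM without IMQ, and 1.91 ± 0.998 and 33.4 ± 5.14 CPM with IMQ (SD, n = 5). The fitted difference between the genotypes was 3.33 on the log2 scale without IMQ and 4.12 with IMQ.

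**Figure D1:**
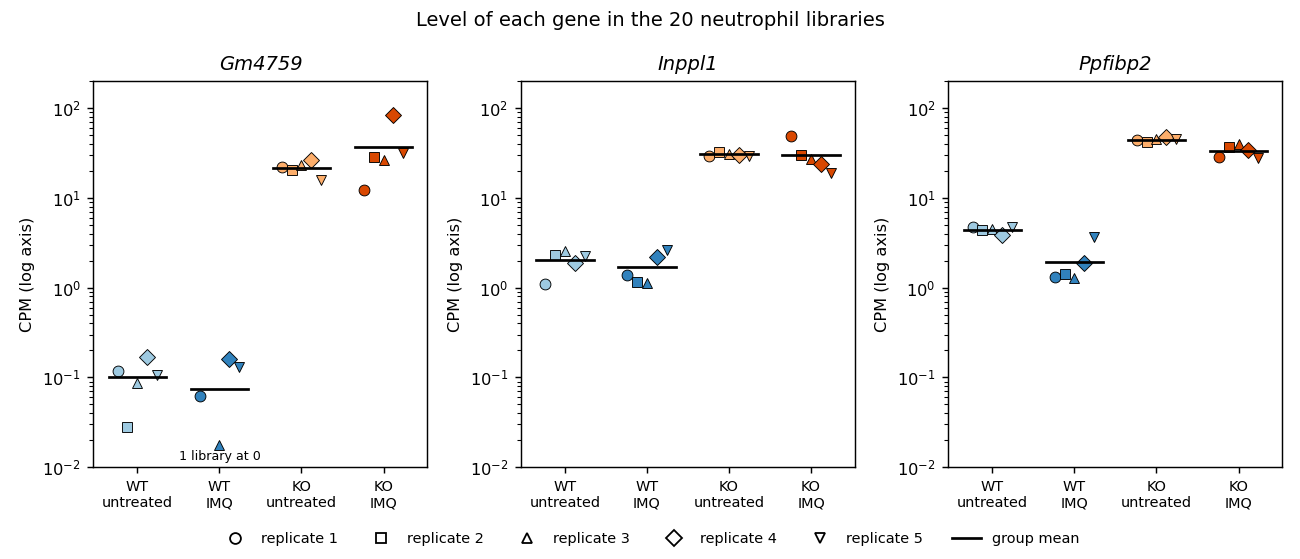
Level of Gm4759, Inppl1 and Ppfibp2 in CPM on a log axis in each of the 20 libraries, by group, with the group mean as a bar and the replicate number as the symbol; KO stands for Bmal1 Mye-/-. All Bmal1 Mye-/- libraries lie above all WT libraries, Gm4759 in IMQ-treated WT replicate 2 is at 0 and is not drawn, and Ppfibp2 in IMQ-treated WT replicate 5 is at 3.64 CPM against 1.29 to 1.90 CPM in the rest of its group.

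By the rule that chose them, all 3 genes were among the genes raised in Bmal1 Mye-/-. These numbered 15 of 14030 tested (0.107%) without IMQ and 26 (0.185%) with IMQ at an adjusted p under 0.05, of which 14 and 15 lay on chromosome 7. Ordered by fold change among those raised, Gm4759 ranked 1, Inppl1 4 and Ppfibp2 5 under both conditions. No overlap between the genotypes with higher values in Bmal1 Mye-/- was found for 0.791% of tested genes without IMQ and 0.627% with IMQ. Scaled per kb of exon in the GENCODE annotation, Inppl1 (6399 bases) was at 4.75 ± 0.208 and Ppfibp2 (10553 bases) at 4.22 ± 0.202 CPM per kb in untreated Bmal1 Mye-/- (SD, n = 5), and at 0.317 ± 0.0883 and 0.420 ± 0.0326 CPM per kb in untreated WT. The order of these genes by level per length was thus Inppl1 above Ppfibp2 in untreated Bmal1 Mye-/-, where they differed by more than 1 SD of either, and Ppfibp2 above Inppl1 in untreated WT.

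The coefficient of variation among the libraries of a group was larger with IMQ than without it for all 3 genes in both genotypes, which was not tested. The coefficient of variation of Inppl1 in Bmal1 Mye-/- was 4.37% without and 38.4% with IMQ, and that of Ppfibp2 was 4.78% and 15.4%. For Gm4759 it was 18.1% and 75.0% in the same groups. Counting error at the median count of these groups was 1.80% to 2.67%, below each of these values. The highest Inppl1 of IMQ-treated Bmal1 Mye-/- was in replicate 1, at 49.0 CPM against 19.1 to 30.0 CPM in the rest. That library also had the lowest sum of neutrophil markers. In WT, counting error was 37.8% and 57.7% for Gm4759, 8.17% and 12.3% for Inppl1, and 5.67% and 11.6% for Ppfibp2, against coefficients of variation of 49.9% and 93.7%, 27.9% and 40.0%, and 7.75% and 52.1%.

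Whether IMQ changed the level of each gene was tested within each genotype. Ppfibp2 fell in WT, by 1.21 on the log2 scale (standard error 0.22, 95% interval −1.66 to −0.76, Benjamini-Hochberg adjusted p = 0.00975 over all tested genes from the quasi-likelihood test of edgeR), which is a level of 0.432 times that of untreated WT. All 5 IMQ-treated WT libraries were below all 5 untreated ones. Among all tested genes, 225 (1.60%) fell in this comparison at an adjusted p under 0.05, and 3.31% were lower with no overlap between the groups. The call was kept in each of the 10 fits that left out 1 library, with adjusted p-values of 5.56e-06 to 0.0364 from edgeR's test, and was lost when only the untreated and IMQ-treated WT groups were fitted (adjusted p = 0.0627).

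In Bmal1 Mye-/- neutrophils Ppfibp2 was at 0.750 times its untreated level with IMQ, a log2 change of −0.41 (standard error 0.20, 95% interval −0.84 to 0.01, adjusted p = 0.138 from edgeR's test). The groups did not overlap here either, as for 9.31% of tested genes that were lower without overlap, and 9.04% of tested genes fell at an adjusted p under 0.05. When only the untreated and IMQ-treated Bmal1 Mye-/- groups were fitted, the change passed (adjusted p = 0.0382 from edgeR's test). The difference between the genotypes in the effect of IMQ on Ppfibp2 was 0.80 on the log2 scale (standard error 0.30, 95% interval 0.18 to 1.42), with an unadjusted p of 0.0142 and an adjusted p of 0.640 from edgeR's test. Without IMQ-treated WT replicate 5, the library with the highest Ppfibp2 of its group, this difference was 1.19 with an adjusted p of 0.0411 from edgeR's test, the one fit of 20 that each left out a library in which it passed.

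Summed markers of some other cell types were lower and of others higher in the IMQ-treated than in the untreated WT libraries, and few single markers passed. The summed level of 9 B-lineage markers was 9.59 to 25.0 CPM in untreated WT and 4.88 to 9.48 CPM in IMQ-treated WT, and all 8 that could be tested had lower fitted values, of which 0 passed, where 1.60% of all tested genes fell. The 8 T and NK markers summed to 15.9 to 24.7 CPM and 6.11 to 15.4 CPM, with 0 of 5 tested passing. IMQ-treated WT replicate 5 had the highest value of its group for both lists as well as for Ppfibp2. The 5 eosinophil markers summed to 29.9 to 104 and 17.3 to 34.3 CPM, with 1 of 5 falling, and the 5 megakaryocyte markers had median sums of 26.7 and 15.2 CPM, with 0 of 5 passing. The 8 monocyte markers went the other way, from 919 to 1084 CPM without and 1109 to 1655 CPM with IMQ, with 0 of 8 passing. The 6 erythroid markers summed to 35.0 to 115 and 90.4 to 534 CPM, with Hba-a1 and Hba-a2 at 0 in every WT library, and Alas2, an enzyme of heme synthesis, rose, 1 of 4 tested, where 2.34% of all tested genes rose. In Bmal1 Mye-/-, B-lineage markers summed to 6.46 to 26.0 CPM without and 5.31 to 8.38 CPM with IMQ, and 3 of 8 fell, Cd79a and Vpreb3 among them, where 9.04% of all tested genes fell. The 8 T and NK markers summed to 16.0 to 22.9 CPM without and 8.68 to 21.1 CPM with IMQ there, so the groups overlapped. Of the 5 tested, Cd3d and Cd4 fell, with Cd4 at 112 and 17 counts in all over a group. The 8 monocyte markers summed there to 887 to 1178 CPM without and 732 to 3764 CPM with IMQ, so the groups overlapped. Of these 8, 5 rose, Ccr2 and F13a1 among them, where 14.4% of all tested genes rose. The highest IMQ-treated values of Ccr2 and F13a1 were 416 and 681 CPM, against medians of 43.0 and 96.0 CPM. The highest sum was in replicate 1. The 5 eosinophil markers summed to 40.6 to 119 CPM without and 36.9 to 186 CPM with IMQ in Bmal1 Mye-/-, and 1 of 5, Siglecf, fell. With IMQ, 2 of these 5, Prg2 and Epx, were higher in Bmal1 Mye-/- than in WT, where 0.185% of all tested genes were higher. In bulk RNA, fewer cells of a type and less RNA per cell cannot be told apart, and the part of these cells in the level of Ppfibp2 was not tested.

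Neither Inppl1 nor Gm4759 passed the test of IMQ in either genotype. The log2 change of Inppl1 was −0.27 in WT (standard error 0.27, 95% interval −0.83 to 0.30) and −0.03 in Bmal1 Mye-/- (standard error 0.25, 95% interval −0.56 to 0.50), with adjusted p-values of 0.605 and 0.943 from edgeR's test. The latter interval runs from 0.678 to 1.42 times the untreated level. Gm4759 was at −0.41 in WT (standard error 0.73, 95% interval −1.95 to 1.12, adjusted p = 0.789 from edgeR's test), where its 35 and 20 counts set the width of the interval. In Bmal1 Mye-/- it was at 0.76 (standard error 0.40, 95% interval −0.07 to 1.60, adjusted p = 0.160), and at 0.22 without replicate 4 of the IMQ-treated group (adjusted p = 0.651 from edgeR's test). The differences between the genotypes in the effect of IMQ were 0.24 for Inppl1 and 1.18 for Gm4759 (standard errors 0.37 and 0.84), with adjusted p-values of 0.782 and 0.640 from edgeR's test. For that difference edgeR's test called 0 of 14030 genes, 721 had an unadjusted p under 0.05, and DESeq2 and limma also called 0.

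**Figure D2:**
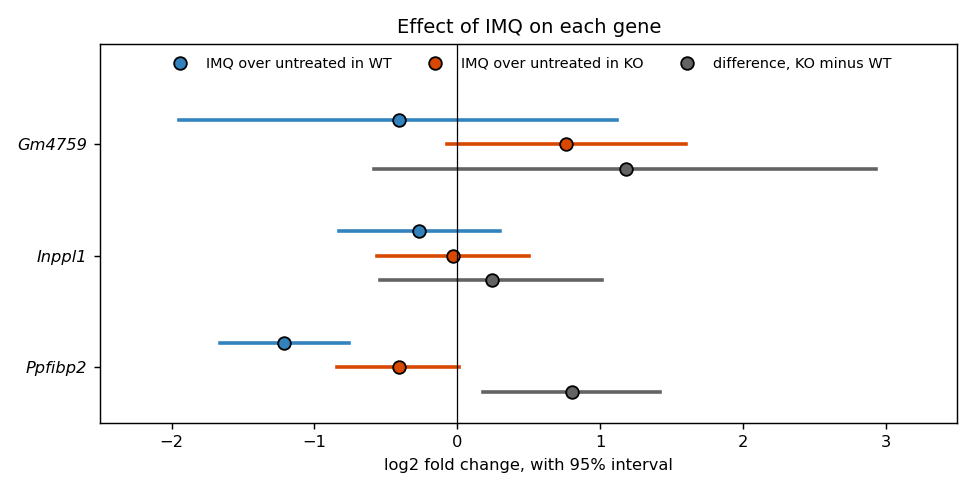
Log2 fold change of each gene with IMQ in WT and in Bmal1 Mye-/- (KO) and the difference between them, from the fit of all 20 libraries, with 95% intervals as lines. Only the interval of Ppfibp2 in WT, −1.66 to −0.76, goes with an adjusted p under 0.05, and the intervals of Gm4759 are the widest.

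Gm4759 and Gm1966, its nearest tested neighbour at higher coordinates, 154 kb away, belong to the same sequence family and differed in opposite directions between the genotypes. The GENCODE transcript of Gm4759 (6622 bases) aligned with that of Gm1966 over 4861 bases at 86.1% identity. Its alignments with Gvin1, Gm4070, Gm8979, Gm8989 and Gm8995 were of like length, at 85.2% to 86.8%. A stretch of 60 bases from the middle of the part that lies in both annotations of Gm4759 is shown to give an idea of how near the copies can be, with capitals at the base that differs, in the direction of the minus strand (GENCODE on GRCm38), chr7:106422093-106422152 for Gm4759 and chr7:106600996-106601055 for Gm1966.
Gm4759: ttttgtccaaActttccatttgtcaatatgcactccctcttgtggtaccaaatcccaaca
Gm1966: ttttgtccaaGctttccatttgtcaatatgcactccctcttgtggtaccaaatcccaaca
This stretch holds 1 mismatch and is more alike than the alignment as a whole, which holds 634 mismatches over 4861 bases. Of the 6573 distinct runs of 50 bases in the Gm4759 transcript, 0.593% also occur in Gm1966 and 2.51% in the transcript of any other gene. Alignments that were not unique are listed apart from the genes, at 4.37% to 6.5% of a library. The counting of reads that match several genes is otherwise not given in the sources used here, so the split of reads between these genes is uncertain.

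Gm1966 was at 181, 180, 200, 258 and 235 CPM in untreated WT and at 11.1, 11.6, 13.7, 14.8 and 11.4 CPM in untreated Bmal1 Mye-/-. With IMQ it was at 489, 227, 195, 344 and 320 CPM in WT and at 6.47, 16.7, 11.3, 53.8 and 13.4 CPM in Bmal1 Mye-/-. The genotypes did not overlap, in the opposite order to Gm4759. Gm4759 took 0% to 0.0655% of the counts of both genes in the 10 WT libraries and 57.9% to 70.2% in the 10 Bmal1 Mye-/- libraries. The summed level of both was 211 ± 34.7 CPM in untreated WT and 34.1 ± 5.26 CPM in untreated Bmal1 Mye-/-, and 315 ± 116 and 56.8 ± 46.3 CPM with IMQ (SD, n = 5). With both counted as 1 gene, an alternative chosen after seeing the data, the difference between the genotypes reversed, to −2.63 on the log2 scale without IMQ and −2.47 with IMQ. The other family members in the files were at or near 0, with Gvin1 and Gm4070 at 0 in all 20 libraries and Gm8979 at 0 to 6 counts per library. IMQ-treated Bmal1 Mye-/- replicate 4 had the highest level of its group for both Gm4759 and Gm1966.

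**Figure D3:**
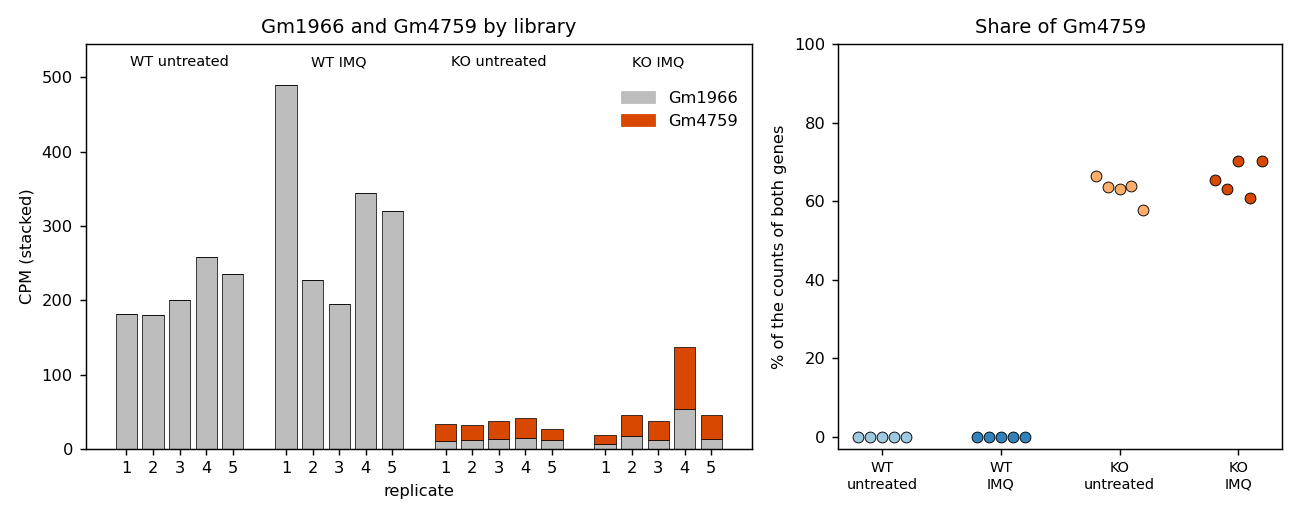
Left, CPM of Gm1966 and Gm4759 stacked for each library, by group and replicate; right, the share of Gm4759 in the counts of both genes, 1 point per library, with KO for Bmal1 Mye-/-. The share is at most 0.0655% in WT and at least 57.9% in Bmal1 Mye-/-, where the stacked level is lower.

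Interferon-stimulated genes were set beside the 3 genes within each genotype, since the family of Gm4759 is named for its induction by interferon. In the 10 Bmal1 Mye-/- libraries, Gm4759 had a Pearson r of 0.762 with the mean of the 20 interferon-stimulated genes (permutation p = 0.0286, adjusted p = 0.172 over the 6 relations computed) and a Spearman rho of 0.188 (permutation p = 0.607, adjusted p = 0.756). Without IMQ-treated replicates 1 and 4, the libraries farthest from the median of that mean, r was −0.44 over 8 libraries, so the relation rested on those libraries. Within treatments, after the mean of each was removed, r was 0.894 (permutation p = 0.00149, adjusted p = 0.00894) and rho was 0.733 (adjusted p = 0.122), with the same 2 libraries at the ends. In the 10 WT libraries r was −0.107 and rho −0.248 (permutation p = 0.805 and 0.492, adjusted p = 0.859 and 0.756), with Gm4759 at 0 to 11 counts, and r was −0.0228 without untreated replicate 1 and IMQ-treated replicate 1.

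For Inppl1 and Ppfibp2 no relation passed over all 10 libraries of a genotype. In Bmal1 Mye-/-, r was −0.287 for Inppl1 (rho 0.00606, permutation p = 0.362 and 1.00, adjusted p = 0.603 and 1.00) and 0.305 for Ppfibp2 (rho 0.515, permutation p = 0.402 and 0.134, adjusted p = 0.603 and 0.744). Without IMQ-treated replicates 1 and 4, r was 0.813 and 0.811 over 8 libraries (permutation p = 0.00216 and 0.00861, adjusted p = 0.0130 and 0.0258). Spearman rho there was 0.786 and 0.738, which did not pass (permutation, adjusted p = 0.138 for each). In those libraries the interferon-stimulated gene mean was 4.72 to 5.48 without and 3.90 to 4.57 with IMQ, and treatment means were not removed. After the treatment means were removed from all 10 libraries, r was −0.321 and 0.298 (permutation, adjusted p = 0.507 and 0.618). In WT, r was −0.116 for Inppl1 (rho 0.176, permutation p = 0.859 and 0.630, adjusted p = 0.859 and 0.756) and −0.471 for Ppfibp2 (rho −0.406, permutation p = 0.139 and 0.248, adjusted p = 0.418 and 0.744), and −0.0814 and 0.192 without the 2 libraries farthest from the median. Of the interferon-stimulated genes themselves, 0 of 20 passed the test of IMQ in either genotype, with medians of 1.00 in WT and 0.60 in Bmal1 Mye-/- on the log2 scale against 0.03 and 0.02 over all tested genes. Of 8 tested guanylate-binding protein genes, also induced by interferon, 0 passed.

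**Figure D4:**
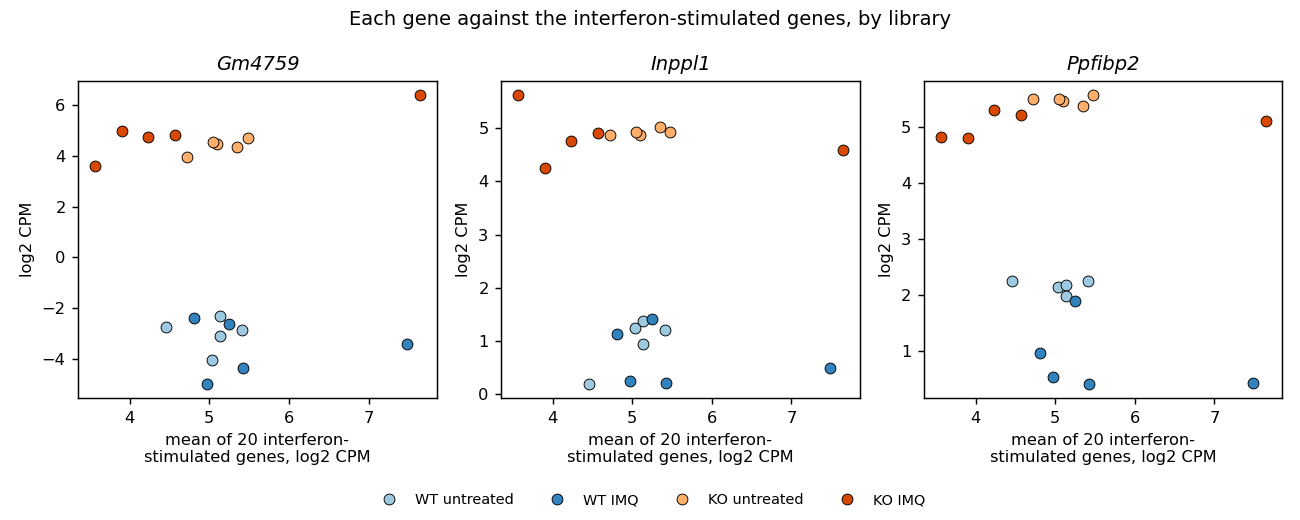
Level of each gene on the log2 CPM scale against the mean of 20 interferon-stimulated genes in the same library, 1 point per library, coloured by group, with KO for Bmal1 Mye-/-. The points farthest to the right are IMQ-treated Bmal1 Mye-/- replicate 4, at 7.65, and IMQ-treated WT replicate 1, at 7.48; the first is the highest for Gm4759.

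Genes that overlap Inppl1 and Ppfibp2 were also higher in Bmal1 Mye-/-, at far lower levels. Phox2a, a homeobox gene of nerve cells on the plus strand, shares its last 95 bases with the end of Inppl1. Its counts were 1 to 3 in untreated WT, 8 to 18 in untreated Bmal1 Mye-/-, 0 to 1 in IMQ-treated WT and 5 to 15 in IMQ-treated Bmal1 Mye-/-. Cyb5r2, which encodes a cytochrome b5 reductase on the minus strand, shares its last 138 bases with the end of Ppfibp2. It had 0 counts in all 10 WT libraries, 3 to 12 in untreated and 0 to 5 in IMQ-treated Bmal1 Mye-/-, too few for the test. The use of strand in counting is not given in the sources used here, so reads from these stretches cannot be told apart by gene. An antisense gene of the GENCODE annotation, Gm10602, covers the start of Inppl1 and shares 16.5% of its runs of 50 bases, and was not analysed here.

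Of the 28 tested genes within 1 Mb of Inppl1, 4 passed in at least 1 of the genotype comparisons, at an adjusted p that 0.207% of tested genes reached without IMQ and 0.292% with it. P2ry2, a receptor for extracellular nucleotides, Phox2a and Trim68 were higher, and Stim1, a sensor of calcium stores, was lower. The median log2 difference of these 28 was 0.10 without and 0.16 with IMQ, against 0.00 and 0.03 over all tested genes. Clpb and Folr1, the nearest tested genes on either side of Inppl1 at 27.2 and 20.1 kb, did not pass. Of 12 tested genes within 1 Mb of Gm4759, Gm1966 alone passed, and of the 2 within 1 Mb of Ppfibp2, Gm1966 passed and Olfml1, 3.68 kb away, did not. Along the whole chromosome, 18 of the 331 tested genes within 20 Mb of Arntl passed in each genotype comparison, and 8 and 9 of the other 745 did.

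**Figure D5:**
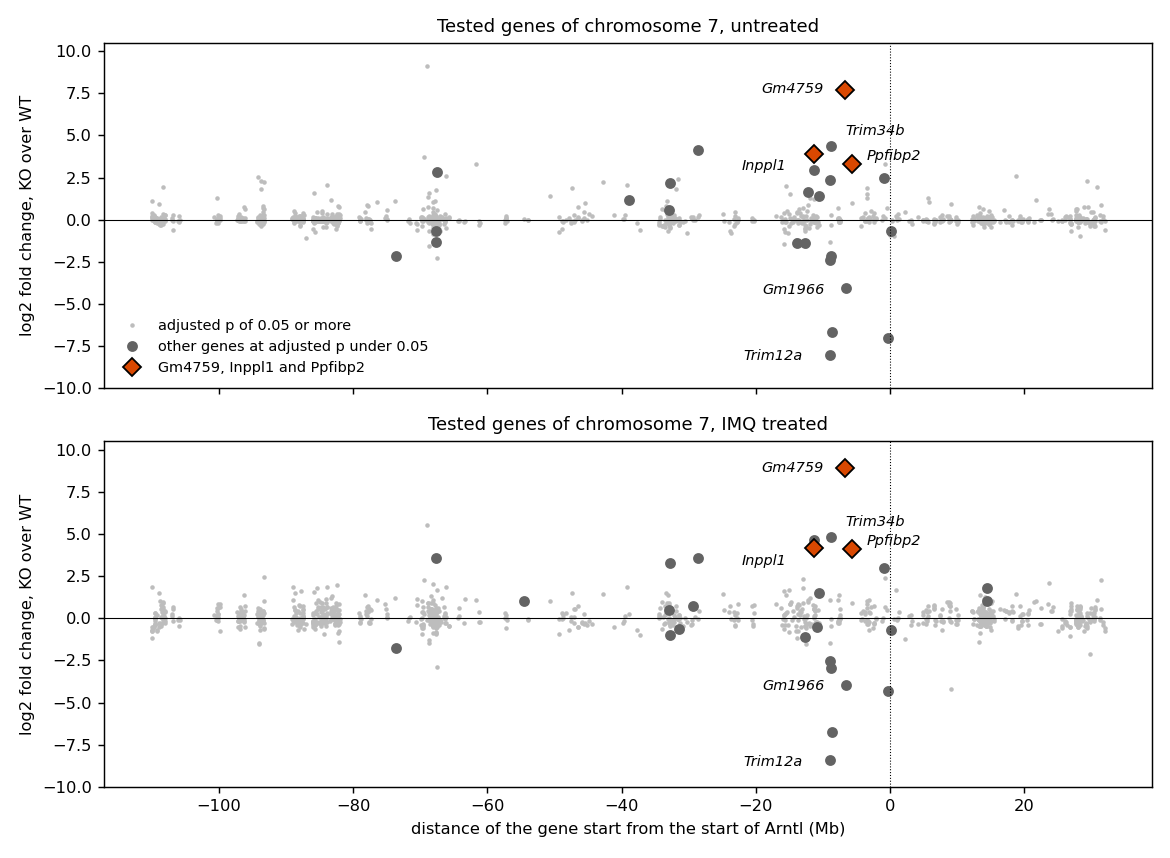
Log2 fold change of Bmal1 Mye-/- (KO) over WT for the 1076 tested genes of chromosome 7 against the distance of the gene start from that of Arntl, without IMQ above and with IMQ below. Gm4759 (7.72 and 8.90), Inppl1 (3.90 and 4.14) and Ppfibp2 (3.33 and 4.12) lie among genes with differences near 0, with other called genes both above and below 0.

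Genes that act with the proteins of Inppl1 and Ppfibp2 showed no difference by genotype that passed. Of 13 other phosphoinositide phosphatase genes, 0 passed in either genotype comparison. Inpp5d, which encodes the SHIP family member of blood cells, was at 323 ± 24.4 CPM in untreated WT and 317 ± 20.9 CPM in untreated Bmal1 Mye-/-, and at 289 ± 70.6 and 220 ± 45.6 CPM with IMQ (SD, n = 5). With IMQ, Synj2 (0.95 on the log2 scale) rose in WT, 1 of 13 where 3.95% of all tested genes passed. In Bmal1 Mye-/-, where 23.5% of all tested genes passed, Inpp5j (1.10), Ocrl (0.69) and Inpp5f (0.60) rose and Inpp4b (−1.43), Inpp5d (−0.53) and Inpp5e (−0.22) fell, and the median of the list was −0.11 against 0.02 over all tested genes. Of 14 PI3K and Akt pathway genes, 0 passed by genotype. Pik3r2, a regulatory subunit of PI3K, fell with IMQ in WT (−0.83) and in Bmal1 Mye-/- (−0.67), where Pik3r1 (−0.40) fell too.

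Of 12 tested genes of the liprin family and its partners, 0 passed by genotype and 0 passed with IMQ in WT, where Ppfibp2 fell. Their median with IMQ in WT was −0.56, against 0.03 over all tested genes. In Bmal1 Mye-/-, Ppfibp1, the other liprin beta gene, rose with IMQ (0.63), and Erc2 (−2.38) and Kank1 (−2.25) fell, with a median of −0.47 against 0.02. These 3 of 12 are a share near the 23.5% of all tested genes that passed there. Ppfibp1 was at 6.82 ± 0.619 CPM in untreated WT and 6.59 ± 0.414 CPM in untreated Bmal1 Mye-/- (SD, n = 5), and differed by −0.05 on the log2 scale (standard error 0.19).

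The genes whose levels were most like those of the 3 genes over all 20 libraries were on chromosome 7. For Gm4759 these were Trim34b (Pearson r of log2 CPM 0.980), Inppl1 (0.965), Ppfibp2 (0.959), Mical2 (0.944) and Ngrn (0.916). For Inppl1 they were Gm4759, Ppfibp2 (0.964), Mical2 (0.963), Trim34b (0.941) and Hddc3 (0.935), and for Ppfibp2 they were Inppl1, Gm4759, Mical2 (0.948), Trim34b (0.944) and Ngrn (0.921). All of these share the difference between the genotypes, which sets such an r. Once the group means were removed, r between the 3 genes was 0.049 for Gm4759 and Inppl1, 0.466 for Gm4759 and Ppfibp2 and 0.469 for Inppl1 and Ppfibp2. The nearest genes were then on other chromosomes and differed for each: Rsrp1 (0.894), 1700020I14Rik (0.885), A630072M18Rik (0.881), Mycbp2 (0.874) and Vhl (0.864) for Gm4759, Prpf40b (0.881), Cd68 (0.865), Itm2c (0.843), Tbc1d4 (0.840) and Tnip2 (0.832) for Inppl1, and Dalrd3 (0.887), Lhx1os (0.882), Cmtm8 (0.876), Prps1l1 (0.874) and Actr5 (0.871) for Ppfibp2. These are the highest of 14029 values each, over 20 libraries that share depth and makeup, and are a description.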

How the data were processed

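The authors prepared NEBNext Ultra II poly(A) libraries and sequenced them on NovaSeq or NextSeq instruments, without saying which library on which. The deposited files hold raw counts of reads per gene, and a combined table with the same counts was not used. The methods name TopHat for mapping to mm10, and the submitters' processing notes name STAR 2.7.8a and HTSeq 2.0.1. The annotation, strand setting and handling of multiply mapped reads are not given in the sources used here. Reads on no feature, 51.9% to 57.8% of a file, and alignments listed as not unique, 4.37% to 6.5%, were left out.

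Counts were fitted in R 4.3.3 with edgeR 4.0.16 (TMM factors from 0.854 to 1.38, filterByExpr, quasi-likelihood test, 4 groups, 5 contrasts, Benjamini-Hochberg adjustment over 14030 genes, threshold 0.05). Log2 CPM used a prior count of 2. Intervals from counts cover counting error only. Libraries of a group differed beyond counting noise (chi-square per degree of freedom 18.2 to 787 over 40 pairs). No label says what a replicate number shares across groups. Residuals of same-numbered untreated and IMQ-treated libraries correlated at 0.128 to 0.426 in Bmal1 Mye-/- and at 0.0728 to 0.384 in WT. The main fit used no pairing, and the replicate number entered only as a block in an alternative fit.

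Positions and promoters came from RefSeq (23204 genes matched by symbol, 1096 by synonym). The 3 genes, the gene lists and the tests were chosen with earlier results of these data known. Genes named beside the 3 are Arntl, Lyz2, overlapping and nearest genes, the 5 most alike by Pearson r, list members that passed (at most 5 per comparison, smallest p first) and genes that a count of 5 or fewer covers, and some list members are not reported here. Alternatives were RLE factors, DESeq2 1.42.0, limma 3.58.1 on log2(CPM + 0.1), no filter, at least 10 counts in every library, only the groups compared, the replicate block and each library left out.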

Additional observations from a re-analysis of the deposited data

Results flagged for a closer look

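In 12 checks on the CPM scale, 3 genes in 4 groups of 5 libraries, a library lay far from the others of its group in 2. Chance gives about 1 in 20 where values are normally distributed, which CPM values need not be. Gm4759 was at 83.6 CPM in IMQ-treated Bmal1 Mye-/- replicate 4, against 12.3 to 31.5 CPM in the rest of the group, and the gap to the nearest library was 0.731 of the group's range. Ppfibp2 was at 3.64 CPM in IMQ-treated WT replicate 5, against 1.29 to 1.90 CPM in the rest, a gap of 0.741 of the range. The limit for 5 libraries is 0.71. On the log2 CPM scale Gm4759 was at 6.39 in the flagged library against 3.62 to 4.98 in the rest. Ppfibp2 was at 1.88 in its flagged library against 0.407 to 0.951. The gaps on that scale were not set against the limit.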

How the results depend on the processing

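The fold changes of the 3 genes between genotypes kept their direction under each alternative named above that gave a value, except the sum with Gm1966. Gm4759 had too few counts for the filter of at least 10 counts and for the fit of WT alone, and gave none there. Summing Gm4759 with Gm1966, added after seeing the data, reversed it to −2.63 without and −2.47 with IMQ, and turned its IMQ change in WT to 0.58. The Inppl1 change with IMQ in Bmal1 Mye-/-, −0.03, turned to 0.02 with limma on log2(CPM + 0.1), and single libraries left out gave −0.27 to 0.10, including 0.02 and 0.06. Its interaction of genotype and IMQ ranged from −0.00 without IMQ-treated Bmal1 Mye-/- replicate 1 to 0.47 without IMQ-treated WT replicate 5.

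The number of genes called for IMQ in WT, 554, was 1480 with DESeq2, 326 without a filter, 190 with the replicate block and 186 with only the groups compared, and 48 to 1989 with 1 library left out, the highest without IMQ-treated WT replicate 5. For IMQ in Bmal1 Mye-/-, 3292, leaving out 1 library gave 1612 to 4037. Between untreated genotypes, 29 became 59 with only those groups, and 24 to 27 with 1 library left out. Between IMQ-treated genotypes, 41 became 311 with DESeq2 and 16 with only those groups, and 20 to 3129 with 1 library left out, the highest without WT replicate 3. The interaction gave 0, or 1 without IMQ-treated WT replicate 5. The causes were not tested. The replicate block changed no call of the 3 genes, with Ppfibp2 in WT at −1.26 (adjusted p = 0.0272 from edgeR's test).

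Without the 2 libraries farthest from the median of the interferon-stimulated genes, r in Bmal1 Mye-/- became −0.44 for Gm4759, 0.813 for Inppl1 and 0.811 for Ppfibp2, and in WT 0.192 for Ppfibp2. Removing treatment means gave 0.894 for Gm4759 in Bmal1 Mye-/- and 0.0048 in WT, and CPM without TMM factors gave −0.165 for Ppfibp2 in Bmal1 Mye-/-. Neighbours that passed by genotype numbered 3 within 2 Mb of Gm4759 where 1 Mb gave 1, 2 within 0.5 Mb of Inppl1 where 1 Mb gave 4, and 0 within 0.5 Mb and 2 within 2 Mb of Ppfibp2 where 1 Mb gave 1. Depth limits Gm4759 in WT, at 0 to 11 counts per library.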
